A study of Rattus norvegicus with 6 samples.

Results

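In cultured rat microglia, 1295 chromatin sites were open in every library yet were less accessible in both cultures stimulated with lipopolysaccharide (LPS) than in both untreated ones. They were found in a table of DNase I cut counts for 129499 regions of the rat genome (build rn5). A region qualified when a hotspot of dense cutting overlapped it in all 6 libraries, which held for 69548 regions, and when its level in the higher LPS library was at most 0.75 times that in the lower untreated library. The sites made up 1.86% of those 69548 regions, spanned 671.0 kb in all, and are named by position because the files assign no region to a gene. Positions count the first base as 1 and include the last.

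DNase I cuts DNA most readily where nucleosomes have been displaced, and such stretches mark promoters, enhancers and other elements held by transcription factors. Microglia are the resident macrophages of the brain. LPS, a bacterial cell wall component, is sensed through Toll-like receptor 4 and switches them to an inflammatory state in which many enhancers gain factors while others, active at rest, lose them. A pre-open site that is partly closed still has a hotspot after stimulation but is cut less, in contrast to a site that disappears.

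Microglia came from the cortices of Wistar rats aged 1 day, and each culture pooled 10 to 15 pups. They were shaken off mixed cultures after 2 weeks in medium with 10% serum and plated for 48 h before use. The untreated group received no stimulus. The LPS group received 100 ng/mL LPS from Salmonella enteritidis for 6 h, and the GCM group received glioma-conditioned medium for 6 h, which is serum-containing medium harvested after 24 h on the rat glioma line C6. Each group had 2 independent cultures, called untreated 1 and 2, LPS 1 and 2 and GCM 1 and 2. Nuclei received DNase I at 0.2 to 3.2 U per reaction for 10 min. Whether other cell types of the cortex were present was not tested, since that needs regions assigned to marker genes.

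Counts in regions numbered 7.14 M to 12.4 M per library, out of 60.1 M to 120.5 M reads. The share of reads in regions was lowest in GCM 2 at 10.0% (95% Wilson interval 9.999% to 10.01%, counting error only) and highest in GCM 1 at 13.7% (13.74% to 13.76%). Levels are given in CPM, the count at a site per M counts of that library in regions. A site had a median of 91 and 61 counts in untreated 1 and 2, 52 and 65 in LPS 1 and 2, and 59 and 91 in GCM 1 and 2. Over all regions the untreated libraries differed by about counting error (chi-square per degree of freedom 0.975), and in sums per chromosome by more (16.04), so they were kept as 2 samples.

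The choice set the untreated and LPS levels, which are therefore a description. Untreated 1 and 2 had median levels of 8.18 and 8.55 CPM over the 1295 sites, and LPS 1 and 2 had 5.30 and 5.24 CPM. GCM 1 and 2 had 7.14 and 7.55 CPM. The GCM libraries thus lay between the other groups and nearer the untreated one. GCM levels had no part in the choice, but the choice favours high untreated and low LPS values. That tends to place any other group between them, so comparisons with unused libraries are given below. A hotspot was also required in both GCM lists, so regions lacking one with GCM could not enter. In all 69548 regions with a hotspot in every list, the medians of the 6 libraries ran from 8.87 to 9.29 CPM.

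**Figure D1:**
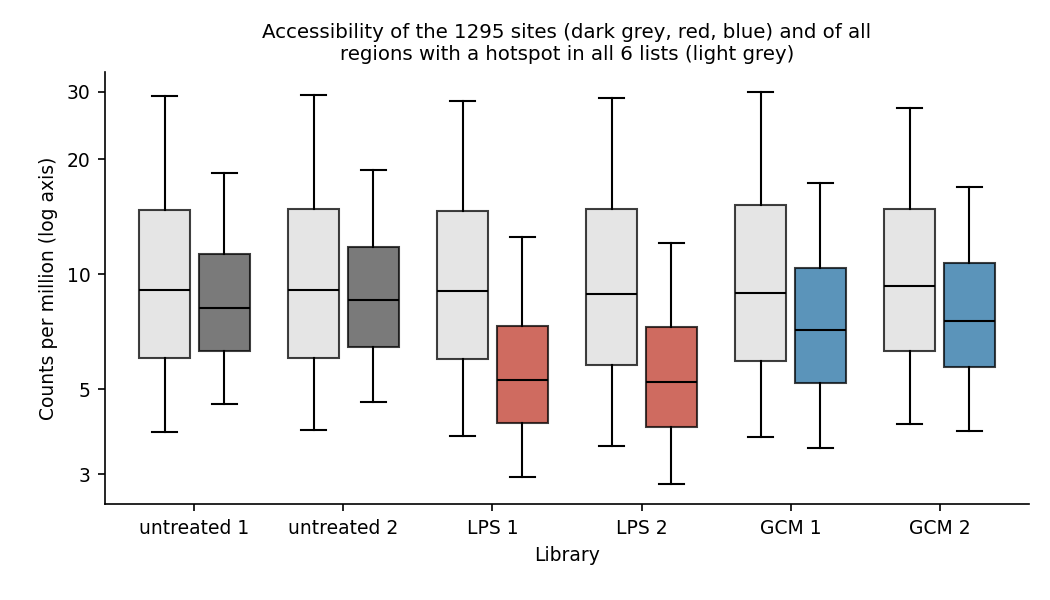
Level of accessibility in each library, in CPM on a log axis, for the 1295 sites (dark grey untreated, red LPS, blue GCM) and for all 69548 regions with a hotspot in every list (light grey); boxes span the quartiles with the median as a line, and whiskers the 5th to 95th percentile of regions. The light grey boxes stay level, while the medians of the sites are 8.18 and 8.55 untreated, 5.30 and 5.24 with LPS and 7.14 and 7.55 with GCM.

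Closure was partial at every site by the choice, which required a hotspot in both LPS lists. In bulk cultures, closure in some of the cells and weaker cutting in all of them cannot be told apart. The mean level with LPS was 0.645 of the untreated mean at the median site, and it ran from 0.398 to 0.745. Only 3 sites had a ratio of the higher LPS to the lower untreated library under 0.5, 70 were under 0.60 and 742 lay from 0.70 to 0.75. In edgeR's quasi-likelihood test with Benjamini-Hochberg adjustment over 126284 regions, 1015 of the 1295 sites were called lower with LPS, against 3.14% of all regions tested. None was called higher, against 6.71%. These counts come from the contrast that chose the sites. A decrease with LPS at an FDR under 0.05 was listed for 1026 sites in the authors' deposited table, against 3.33% of its regions.

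Just inside the threshold stood chr15:40274524-40274874, chr9:13238832-13239749 and chr8:84838519-84839066, with ratios from 0.7498 to 0.74984. Just outside it stood chr10:5508947-5509364, chr3:153042856-153043404 and chr14:78058471-78058797, with ratios of 0.75001 to 0.75032.

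Selection drew libraries together as well as apart. Over the 1295 sites the chi-square per degree of freedom between replicates was 0.423 in the untreated pair and 0.453 in the LPS pair. Both values are below counting error. The rule bounds the lower untreated and the higher LPS library, so a site passed more readily where the libraries of a group agreed. In the GCM pair it was 1.16 at these sites and 1.42 in all regions with 6 hotspots. The spread within the untreated and LPS pairs is therefore understated at these sites.

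To see how much of the closure recurs in other libraries, sites were also chosen by the levels of 1 untreated and 1 LPS library. They were read in the other pair, which took part only through the hotspot required in every list. Chosen from untreated 1 and LPS 1, 5604 regions had a median log2 difference of -0.52 in those libraries and -0.28 between LPS 2 and untreated 2. For the other 3 ways of choosing, the median fell from -0.53 or -0.54 to values between -0.26 and -0.21. LPS was lower in the unused pair at 77.8% to 79.8% of the regions so chosen, compared with 55.2% to 56.8% of all regions with 6 hotspots. A ratio of 0.75 or less recurred in 23.3% to 34.6% of them, compared with 8.06% to 11.97%. With 1 library on each side these values carry no test, and the depth of closure given by the choosing libraries is larger than that in unused ones.

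The 10 sites with the lowest ratio, among the 896 sites with at least 50 counts in the shallower untreated measurement, lay on 8 chromosomes. The lowest ratio of all was at chr12:49761654-49762221, where untreated cultures held 14.7 and 14.7 CPM, LPS cultures 6.31 and 6.62 and GCM cultures 13.9 and 13.2. At chr17:15138571-15139045 the levels were 12.1 and 12.6 CPM untreated, 4.28 and 5.57 with LPS and 11.3 and 11.2 with GCM. In both, the GCM libraries lay just below the untreated ones and far above the LPS ones, and no library of one group overlapped another group.

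Other deeply closed sites kept their full level with GCM. At chr4:43658999-43659401 the untreated libraries held 7.19 and 9.25 CPM, the LPS libraries 3.87 and 3.63, and the GCM libraries 8.59 and 9.21. At chr1:220586353-220586779 the levels were 11.7 and 11.1 CPM untreated, 5.40 and 5.65 with LPS, and 14.2 and 9.87 with GCM. At the former both GCM libraries fell within the untreated range, and at the latter they lay on either side of it.

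GCM levels above the LPS levels were also seen at sites 82.5 kb apart, and whether nearness matters was not tested. On chromosome 10 the site at chr10:61768874-61769521 held 13.7 and 14.6 CPM untreated, 6.52 and 6.37 with LPS and 14.5 and 11.1 with GCM. The site at chr10:61852059-61852457, 82.5 kb further on, held 7.64 and 7.71 CPM untreated, 4.07 and 3.87 with LPS and 7.503 and 7.88 with GCM. Another of the 1295 sites lay between them, among 6 regions with hotspots in every list, and GCM stayed clear of the LPS level at both named sites.

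A different pattern was seen at chr19:10378444-10378840, with 6.92 and 7.01 CPM untreated and 3.06 and 3.63 with LPS. There GCM 1 stood at 3.15 CPM, within the LPS range, and GCM 2 at 5.72 CPM, so the GCM cultures did not agree. At chr10:91967978-91968523 the levels were 11.9 and 11.5 CPM untreated, 4.89 and 5.81 with LPS and 7.87 and 8.38 with GCM. This site lay in between, with GCM apart from both other groups.

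**Figure D2:**
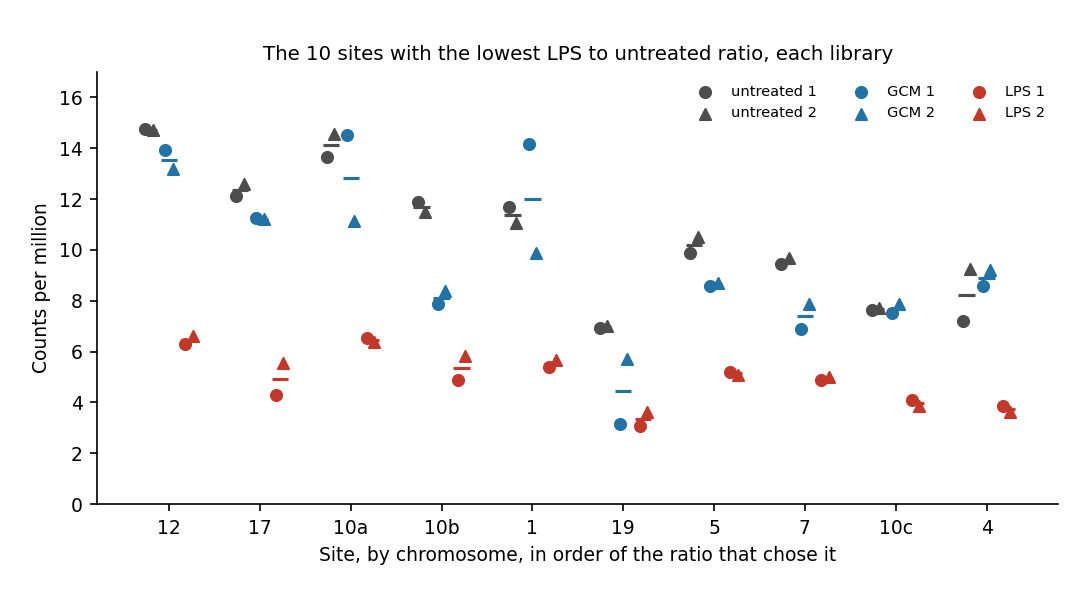
Level in each library, in CPM, at the 10 sites with the lowest ratio of LPS to untreated, ordered by that ratio and labelled by chromosome; circles are replicate 1, triangles replicate 2 and short lines group means. LPS points lie below both untreated points at every site by the choice, while both GCM points lie above both LPS points at 9 of the 10, the exception being on chromosome 19, where GCM 1 is at 3.15 CPM.

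GCM levels were compared with untreated levels to ask whether conditioned medium closes the same sites. Both comparisons against untreated cultures share the untreated libraries, and the choice favours high untreated values, which lowers any other group relative to them. The mean with GCM was below the untreated mean at 1038 of the 1295 sites and above it at 257, and its median was 0.877 of the untreated mean. The edgeR log2 change was below 0 at 1027 of the sites, against 36268 of 69546 regions with 6 hotspots. The edgeR log2 change with GCM had a median of -0.18 at the sites, against -0.62 with LPS, and -0.01 over regions with 6 hotspots.

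By edgeR 7 of the 1295 sites (0.541%) were called lower with GCM at an adjusted p under 0.05, against 0.231% of all regions tested and 0.0633% of regions with 6 hotspots. None was called higher, against 1.34% of all regions, and DESeq2 called 0 in either direction. An edgeR fit with replicate number as a further factor called 31 of the 1295 lower and 0 higher. The shares of all regions called in that fit and by DESeq2 are not given here. Those counts therefore do not show whether the sites differ from other regions. In the main edgeR fit, at an unadjusted p under 0.05, 253 of the 1295 sites were lower with GCM and 17 higher. Of the 126284 regions tested, 7444 were lower and 11655 higher. A decrease with GCM at an FDR under 0.05 was listed for 16 sites in the authors' deposited table, against 0.327% of its regions. The 7 calls were lost, leaving 0, with whole-library totals, where the share of all regions called is not given either. The median log2 change at the sites was -0.21 without untreated 1 and -0.16 without untreated 2. It was -0.16 without GCM 1 and -0.20 without GCM 2.

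The difference from untreated was also read in untreated libraries whose levels had no part in the choice. The hotspot required in every list still involved them. Sites were chosen with both LPS libraries and untreated 1 (2476 regions), and GCM was then compared with untreated 2 by edgeR on the 5 libraries other than untreated 1. The median log2 change was -0.09, against -0.01 over all regions with 6 hotspots, and GCM was lower at 62.3% of the chosen regions against 52.5%. Chosen with untreated 2 (3788 regions) and read against untreated 1, the median was -0.05 against 0.00147, and GCM was lower at 59.0% against 49.7%. No chosen region was called in either direction in edgeR, where 0.0% and 0.000788% of all regions were called lower and 0.00948% and 0.0677% higher. At an unadjusted p under 0.05, 163 and 176 of the chosen regions were lower with GCM (6.58% and 4.65%, against 4.64% and 3.55% of all regions). In the same fits 47 and 108 were higher (1.90% and 2.85%, against 6.65% and 6.62% of all regions). With whole-library totals the median against untreated 2 was -0.0017, against 0.08 over all regions with 6 hotspots, and that against untreated 1 was -0.07, against 0.0025. The lone untreated library in each of these fits was assumed to vary like the other groups.

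GCM was then compared with LPS to ask whether the sites differ between the stimuli. Here the choice favours low LPS values, which raises GCM relative to them. Both GCM libraries lay above both LPS libraries at 1150 of the 1295 sites, against 24.6% of all regions tested, and below both at 5, against 24.8%. By edgeR 518 sites were higher with GCM than with LPS, against 3.75% of all regions, with a median log2 difference of 0.46 over the 1295. None was lower, against 4.84% of all regions. At an unadjusted p under 0.05 in edgeR, 0 sites were lower, against 14214 of the 126284 regions tested. DESeq2 called 0 lower and 41 higher. The count of 518 became 78 with whole-library totals. The shares of all regions called in those fits are not given here, so the falls may not be particular to the sites. The median log2 difference was 0.46 in DESeq2 and 0.40 with whole-library totals. It was 0.45 without GCM 2, 0.48 without GCM 1, and 0.46 without LPS 1 or without LPS 2.

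The difference was also read in LPS libraries whose levels had no part in the choice. The hotspot required in every list still involved them. Sites were chosen with both untreated libraries and LPS 1 (3249 regions), and GCM was compared with LPS 2 by edgeR on the 5 libraries other than LPS 1. The median log2 difference was 0.23, against 0.02 over all regions with 6 hotspots, and GCM was higher at 78.6% of the chosen regions against 53.3%. Of these regions 409 (12.6%) were called higher with GCM, against 3.09% of all regions tested, and 5 were called lower, against 3.69%. Chosen with LPS 2 (3921 regions) and read against LPS 1, the median was 0.24 against 0.03, GCM was higher at 78.2% against 55.9%, 279 (7.12%) were called higher, against 1.35%, and 1 lower, against 2.48%. The lone LPS library in each fit was assumed to vary like the other groups, although the LPS pair differed from each other by 1.43 chi-square units per degree of freedom over regions with 6 hotspots and by 87.2 in sums per chromosome. With whole-library totals the medians were 0.19 and 0.16, against -0.02 and -0.03 over all regions with 6 hotspots. GCM was higher at 72.4% and 70.2% of the chosen regions, against 47.2% and 45.0%. Almost no region with 6 hotspots was called higher with that scaling, chosen or not. The share of reads in regions, which that scaling carries into the values, was 13.7% in GCM 1 and 10.0% in GCM 2, and its part in the result was not tested.

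**Figure D3:**
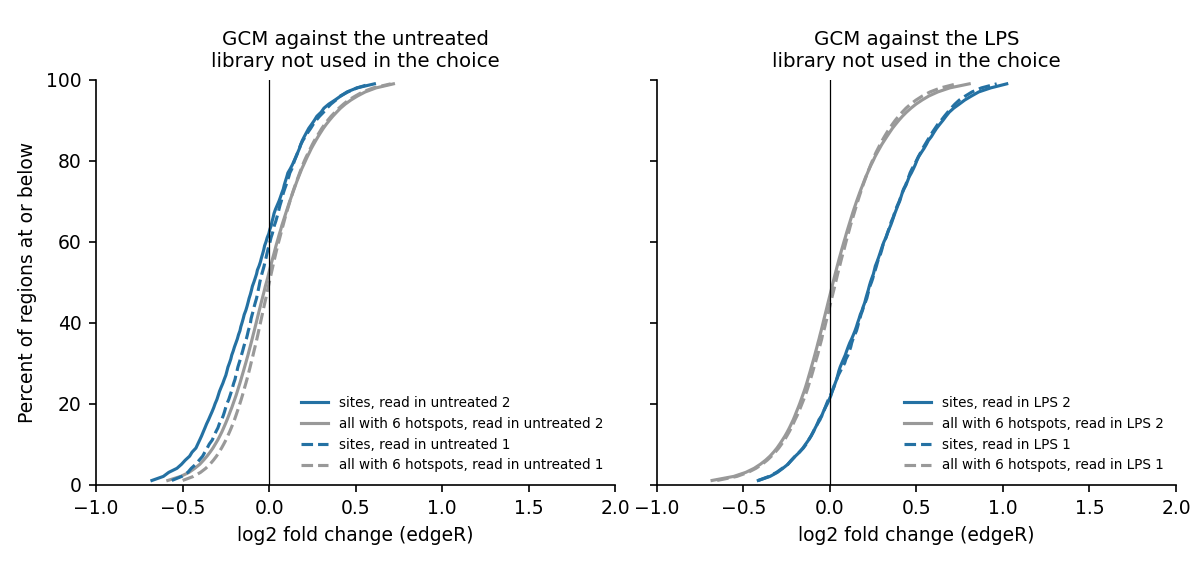
Cumulative share of regions by log2 fold change in edgeR. GCM is set against the untreated library (left) or the LPS library (right) whose level was not used to choose the sites. Blue lines are the chosen regions, grey lines all regions with 6 hotspots, and solid and dashed lines the 2 libraries read. Against untreated the blue medians are -0.09 and -0.05, to the left of the grey medians of -0.01 and 0.00147. Against LPS the blue medians are 0.23 and 0.24, well to the right of the grey medians of 0.02 and 0.03.

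The position of the GCM libraries relative to the other groups was also counted, without a test of whether sites differ from one another. Both GCM libraries lay strictly between the LPS and untreated pairs at 587 of the 1295 sites (against 3.03% of all regions tested), below both untreated libraries at 720 (against 23.0%) and above both at 87 (against 23.1%). Neither GCM library fell below the lower untreated one at 206 sites (against 48.4%). Both GCM libraries were at most 0.75 of the lower untreated library at 47 sites (3.63%, against 2.3% of all regions tested and 0.341% of regions with 6 hotspots), and at or below the higher LPS library at 12 (against 48.7%). The untreated and LPS libraries in these counts are those of the choice. A position between the pairs needs both LPS libraries below both untreated ones. The choice ensured this at every site but not in other regions, so the shares for that position cannot be compared.

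The 7 sites called lower with GCM are described here, although their untreated values were chosen to be high. Against untreated libraries not used in a choice, the median log2 changes with GCM were -0.09 and -0.05. The smallest p-value was at chr6:38449736-38450612, with 18.6 and 19.1 CPM untreated, 12.9 and 13.8 with LPS and 13.8 and 11.4 with GCM. The log2 difference of GCM from untreated was -0.59 ± 0.138 (SE of 2 cultures a group, edgeR adjusted p = 0.0197), and GCM and LPS overlapped. At chr8:108786177-108787113 the levels were 13.6 and 14.4 CPM untreated, 9.78 and 9.04 with LPS and 8.59 and 9.79 with GCM, and the GCM change was -0.58 ± 0.145 (adjusted p = 0.0285, edgeR). The LPS and GCM libraries overlapped there, and all 4 lay below both untreated libraries.

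At chr6:133371038-133371859 the untreated libraries held 18.4 and 18.5 CPM, the LPS libraries 12.6 and 12.4 and the GCM libraries 12.5 and 13.02. At chr14:79937552-79937977 they held 9.08 and 9.95, 5.30 and 6.05, and 5.20 and 6.39 CPM in the same order. The largest GCM decrease of the 7, -0.72 ± 0.184 (adjusted p = 0.0321, edgeR), was at chr19:11014706-11015215, with 8.09 and 7.85 CPM untreated, 5.602 and 5.65 with LPS and 5.08 and 4.65 with GCM. At this last site the GCM libraries were the lowest, and the LPS change itself did not pass the test (-0.49 ± 0.174, adjusted p = 0.0624, edgeR).

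The remaining calls were at chr3:88555842-88556587 and chr16:20131571-20132807, with GCM changes of -0.52 and -0.50 (adjusted p of 0.0428 and 0.0381, edgeR). They complete the list of 7, and GCM and LPS were not shown to differ at any of the 7 (adjusted p from 0.479 to 0.959, edgeR). With 2 libraries per group, a missed threshold does not show equal levels. All of the 7 lost the call in at least 7 of 11 other settings except chr6:38449736-38450612, which lost it in 6.

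At the opposite end were sites where GCM stood above untreated while LPS stood below. At chr16:40732786-40733166 the untreated libraries held 5.84 and 6.17 CPM, the LPS libraries 3.87 and 3.23 and the GCM libraries 7.503 and 9.13. At chr1:262511328-262511805 the levels were 12.3 and 11.5 CPM untreated, 7.13 and 7.02 with LPS and 15.6 and 14.9 with GCM. The groups were fully separated at both, in the order LPS, untreated, GCM, though the excess over untreated did not pass the test (log2 0.50, adjusted p = 0.137, and log2 0.34, adjusted p = 0.198, edgeR).

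The same order held at chr3:136836708-136837049, chr17:30307695-30308227 and chr3:166341383-166341905, with GCM changes against untreated of 0.53, 0.39 and 0.36 (adjusted p from 0.154 to 0.212, edgeR). At each of these 5 sites the difference between GCM and LPS passed the test, with log2 values from 0.85 to 1.25. The one at chr16:40732786-40733166 was 1.25 ± 0.190 (SE, edgeR adjusted p = 1.57e-05). It kept its call in all 11 alternatives tried for it.

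The smallest p-values for GCM above LPS belonged to chr1:262511328-262511805 (log2 difference 1.09 with an SE of 0.145, edgeR adjusted p = 1.89e-06) and chr14:83818320-83819004. The latter held 11.2 and 12.5 CPM untreated, 7.03 and 6.62 with LPS and 14.2 and 15.2 with GCM, a difference of 1.11 ± 0.147 (adjusted p = 1.89e-06, edgeR). At chr14:42039524-42040544 the levels were 18.1 and 17.5 CPM untreated, 11.9 and 11.2 with LPS and 21.5 and 22.2 with GCM. The sites on chromosomes 12 and 17 with the deepest closure completed these 5, and all 5 kept the call in all 11 alternatives. The choice by LPS levels favours such differences.

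The sites were compact. Their median width was 465 bp, against 549 bp in all regions with 6 hotspots, and 41 exceeded 1 kb. When regions with 6 hotspots were split by width into 5 classes of about equal number, 2.47% of the narrowest class (29 to 373 bp) and 0.584% of the widest (from 911 bp) were among the sites. The median count rose from 47.5 to 230.2 between these classes, so width and depth move together here and their part in the choice was not tested. Sites opened by the mirrored rule had the lower LPS library at least 1.333 times the higher untreated one (1451 regions). Their median width was 524 bp, also below that of all regions with 6 hotspots. They made up 1.38% of the narrowest class, 3.14% of the middle one and 0.886% of the widest.

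The GCM libraries entered the choice only through the hotspot required in every list. Their cutting density had a median of 15.9 CPM per kb at the sites and 16.6 in all regions with 6 hotspots. At sites opened by the mirrored rule it was 14.9 CPM per kb. Of the regions in the lowest of 5 classes of GCM density 2.15% were among the sites and 3.51% opened, and in the highest 1.16% and 0.856%. By the authors' hotspot score, the hotspot at the median site ranked above 66.0% and 69.1% of the hotspots in the lists of GCM 1 and GCM 2, compared with 72.5% and 74.2% for all regions with 6 hotspots. For regions opened by the mirrored rule these values were similar to those of the sites, at 67.9% and 68.1%.

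**Figure D4:**
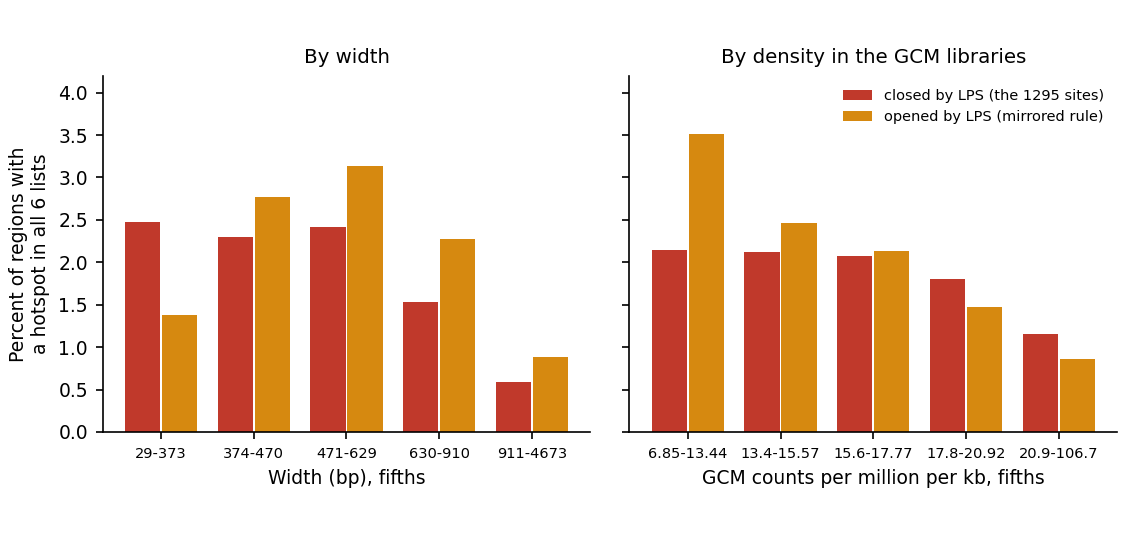
Percentage of regions open in all 6 libraries that belong to the 1295 sites (red) or to the 1451 regions opened by LPS under the mirrored rule (orange), in 5 equal classes of region width (left, bp) and of cutting density in the GCM libraries (right, CPM per kb); bars are percentages and carry no error. The red bars fall from 2.47% in the narrowest class to 0.584% in the widest, and from 2.15% to 1.16% with density.

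A few sites were strong or wide. The densest was chr10:93409484-93409950, at 39.0 CPM per kb in untreated cultures, with 18.8 and 17.7 CPM untreated, 12.2 and 12.4 with LPS and 17.8 and 15.8 with GCM. At chr12:19710955-19711646 the levels were 25.1 and 26.9 CPM untreated, 18.0 and 18.0 with LPS and 28.4 and 24.97 with GCM. The GCM libraries reached the untreated level at these 2 sites in at least 1 library. At chr1:56166548-56167295 the GCM libraries parted, at 16.5 and 24.1 CPM, against 24.997 and 28.2 untreated and 17.8 and 17.9 with LPS.

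The other 2 of the 5 densest sites were chr1:91868888-91869191 and chr13:100079336-100079813, at 35.1 and 34.1 CPM per kb untreated. The widest site, chr3:158786518-158788638 at 2121 bp, held 41.5 and 40.8 CPM untreated, 30.4 and 30.3 with LPS and 35.7 and 36.9 with GCM. Next came chr7:132083188-132084847 with 26.3 and 24.4, 17.2 and 16.4, and 21.4 and 22.3 CPM in that order. At both the GCM libraries lay between the other groups without touching either. At chr5:162575573-162577164, the next in width, GCM held 40.7 and 33.5 CPM, on either side of the untreated 37.9 and 40.5 CPM and above the LPS 26.2 and 20.6 CPM.

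Most sites had no other site within 50 kb. The median gap to the nearest other site was 434 kb, and 134 of the 1295 had another site within 50 kb. Among the regions opened by the mirrored rule the median gap was 287 kb, and 268 of 1451 had another within 50 kb. Joined at gaps under 50 kb, the 1295 sites formed 1161 single sites, 58 pairs and 6 groups of 3. The tightest group of 3 spanned 16.05 kb on chromosome 6. Its members were chr6:133539599-133540308 (16.6 and 15.0 CPM untreated, 9.98 and 9.84 with LPS, 14.9 and 13.9 with GCM), chr6:133552185-133552875 (13.13 and 13.03, 9.17 and 9.12, 12.2 and 10.2 CPM) and chr6:133555233-133555644 (6.65 and 7.57, 4.89 and 4.44, 5.81 and 6.47 CPM). GCM was intermediate in all 3, and the site at chr6:133371038-133371859, one of the 7 called lower with GCM, lay 167.7 kb before them.

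The sites were also set apart from other open regions. The median gap to the nearest counted region of any kind was 2725 bp, against 1737 bp for all regions with 6 hotspots, and 21.5% had none within 10 kb, against 12.1%. For sites opened by the mirrored rule these values were 1735 bp and 9.72%. Within 2 kb of the 1295 sites, 10 of 634 neighbouring regions were themselves among the sites (1.58%, against 0.594% around all regions with 6 hotspots) and 2 were opened (0.315%, against 0.932%).

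Other counted regions nearby were examined as well. Within 2 kb, 586 tested neighbours that were neither among the sites nor opened had a median log2 change of -0.07 with LPS and -0.04 with GCM, and 3.92% of them were called lower and 2.05% higher with LPS. Around all regions with 6 hotspots the same medians were 0.03 and 0.01, and 1.45% were called lower and 4.90% higher. At 10 to 20 kb the medians around the sites were -0.0008 and -0.02. Around opened sites the neighbours within 2 kb stood at 0.17 with LPS and 0.14 with GCM and were still at 0.06 with both at 20 to 50 kb. The difference between the surroundings of closed and opened sites was not tested. These medians come from the contrast that chose the sites, and the LPS and GCM values share the untreated libraries. The LPS libraries also differed from each other over broad stretches (7.91 chi-square units per degree of freedom for sums over each Mb), and the part of that in these values was not tested.

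**Figure D5:**
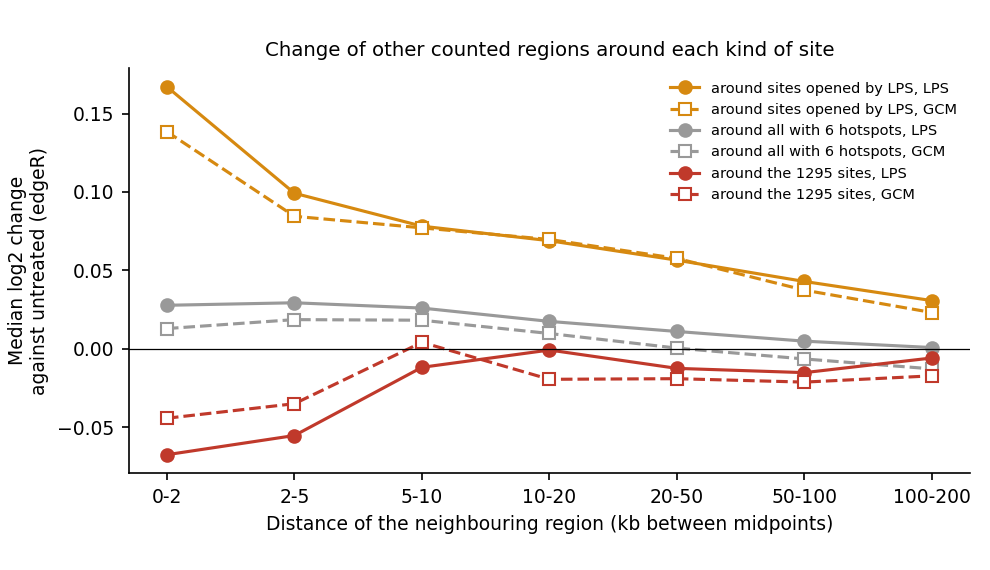
Median log2 change against untreated (edgeR) of other counted regions, by distance between midpoints in kb, around the 1295 sites (red), around all regions with 6 hotspots (grey) and around regions opened by LPS (orange); filled points with solid lines are LPS and open points with dashed lines GCM. Red points start at -0.07 and -0.04 within 2 kb and are near 0 from 5 kb on, while orange points start at 0.17 and 0.14 and decline over the whole range.

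All 21 chromosomes of the table carried sites. The share of regions with 6 hotspots that were among the sites ran from 0.988% on chromosome X (10 of 1012) and 1.17% on chromosome 20 (22 of 1879) to 2.43% on chromosome 9 (72 of 2964) and 2.46% on chromosome 18 (46 of 1870). Chromosomes 11 and 12 differed in balance, with 28 sites and 63 opened regions on chromosome 11 and 42 and 21 on chromosome 12. The median log2 change with LPS over all regions with 6 hotspots was -0.009 on chromosome 11 and -0.06 on chromosome 12, and the part of these chromosome-wide levels in the counts was not tested. The median GCM change at the sites lay below 0 against untreated and above 0 against LPS on each of the 21 chromosomes, from -0.32 to -0.13 and from 0.35 to 0.55. The choice favours high untreated and low LPS values, so both signs were tilted in advance on every chromosome.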

How the data were processed

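DNase I sequencing gave 6 libraries. The submitters' processing notes name build rn5 and the tools Picard 1.95, Bowtie 1.1.2, cutadapt 1.8.3, edgeR, SAMtools and DiffBind; order and settings are not given in the sources used here. The authors deposited raw counts per region and, per library, hotspot lists with a score whose definition is not stated and whose names give a false discovery rate of 0.01. The authors' deposited comparison tables give CPM per whole library, log2 fold changes and adjusted p-values (FDR). Whole-library totals were recovered from the CPM. Another 12 per-library columns, of CPM per base, were not used.

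Hotspots overlapping by at least 1 bp were found with bedtools 2.31.1. Counts were tested in edgeR 4.0.16 (R 4.3.3) by quasi-likelihood with TMM scaling (factors 0.986 to 1.01), a minimum count of 10, group means and a threshold of 0.05. Counts of a region limit precision to the depths given. The sites, lists and comparisons were chosen with earlier results of these data known. Regions named were the 10 with the lowest ratio, 5 with the smallest p in each GCM direction, the 5 densest, 3 widest, 3 on each side of the threshold and the tightest run; the last 2 of the 7 called lower with GCM were added after their values were seen, as was the choice among 6 equal runs. The reference tables at hand are of another assembly, so gene lists, markers and motifs were not used. Summaries used Python 3.11.15 and pandas 2.3.3. Correlations of replicate deviations were 0.16 between untreated and GCM, 0.01 between untreated and LPS and -0.03 between LPS and GCM. These values do not settle whether replicate numbers pair the cultures. The main fit had no replicate block. Alternatives were other scalings, filters, DESeq2 1.42.0, a replicate block, a ratio of 0.67 and leaving out libraries.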

Additional observations from a re-analysis of the deposited data

Results flagged for a closer look

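GCM and LPS levels differed in edgeR's direct test in LPS libraries not used in the choice: 409 regions chosen with LPS 1 were higher with GCM than in LPS 2 (against 3.09% of all regions tested), and 279 chosen with LPS 2 were higher than in LPS 1 (against 1.35%). With whole-library totals almost no region with 6 hotspots was called higher, chosen or not, and the median log2 differences were 0.19 and 0.16. Of the 1295 sites 518 were higher with GCM than with LPS (against 3.75%), and 78 with whole-library totals, but the choice required low LPS values and so favoured that direction. The same holds for the values of the named sites. Each of these choices also required a hotspot in all 6 lists. Among the named sites with the lowest ratio, the log2 difference of GCM over LPS that passed this test was 1.05 (chr12:49761654-49762221), 1.16 (chr17:15138571-15139045), 0.96 (chr10:61768874-61769521), 0.59 (chr10:91967978-91968523), 1.07 (chr1:220586353-220586779), 0.75 (chr5:62458994-62459505), 0.58 (chr7:124809216-124809683), 0.95 (chr10:61852059-61852457) and 1.25 (chr4:43658999-43659401). Among sites with GCM above untreated it was 1.25 (chr16:40732786-40733166), 1.14 (chr3:136836708-136837049), 0.96 (chr17:30307695-30308227), 1.09 (chr1:262511328-262511805) and 0.85 (chr3:166341383-166341905). It was also passed at chr14:83818320-83819004 (1.11), chr14:42039524-42040544 (0.92), chr10:93409484-93409950 (0.43), chr12:19710955-19711646 (0.55), chr13:100079336-100079813 (0.49), chr5:162575573-162577164 (0.66), chr9:13238832-13239749 (0.59) and chr6:133539599-133540308 (0.53). Of 11 alternatives the call was lost in 8 at chr10:93409484-93409950, in 7 at chr7:124809216-124809683, in 6 at chr10:91967978-91968523 and in 5 at chr13:100079336-100079813. The other named sites lost it in 0 to 4.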

How the results depend on the processing

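The number of sites was 1295 as chosen, 311 at a ratio of 0.67, 554 with whole-library totals, and 2476 to 3921 when the choice left out 1 of its 4 libraries; it was 1061 when hotspots had to cover at least 50% of a region and 1205 with TMM scaling. Sites called lower with GCM than untreated numbered 7, and 2 at a ratio of 0.67, 0 with whole-library totals, 0 in DESeq2, 0 with the untreated libraries counted as 1 sample (chosen after seeing the data), 31 with the replicate block, and 0 to 1 leaving out 1 library. Sites called higher with GCM than with LPS numbered 518, and 183 at a ratio of 0.67, 78 with whole-library totals, 41 in DESeq2, 582 with the replicate block and 208 to 361 leaving out 1 library. With 1 untreated library left out, almost no region of any kind was called lower with GCM than untreated. The shares of all regions called with whole-library totals, in DESeq2 and with the replicate block are not given here. The median log2 difference between GCM and LPS moved from 0.46 to 0.40 with whole-library totals, and no median changed sign. Read in unused LPS libraries, 177 and 138 regions were called higher at a ratio of 0.67, and 2 and 0 with whole-library totals (chosen after seeing the data); those called lower were 3 and 0 at a ratio of 0.67, and 0 and 0 with whole-library totals. With whole-library totals almost no region with 6 hotspots was called higher against an unused LPS library, chosen or not. At the named sites 716 of the values under alternatives kept direction and side of the threshold, 93 lost a call, 2 gained one and 25 changed sign without a call. The causes were not tested. At these depths the standard error of a GCM change from untreated was 0.124 to 0.211 (log2) at the named sites, beside a median change of -0.18.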
